A study of Mus musculus with 16 samples.

Results

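The acyl-CoA thioesterases Acot1, Acot2, Acot3, Acot4 and Acot12 and the acyltransferases Acnat1, Acnat2 and Baat were followed across 8 groups of mouse liver. All probes annotated to these 8 genes were taken from the deposited table, which gave 11 probes for 7 of the genes, of 16593 gene symbols on the array; Acnat1 was not analysed here. The 8 genes were chosen from this enzyme family with results of these same arrays in view, and which values weighed in that choice is not recorded. Their values are therefore given as a description, without p-values. Where a fit over all features called one of them, the call is part of that description and no independent evidence.

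RNA came from livers of male FVB mice aged 10 weeks. The mice were wild-type or lacked LKB1 in the liver. LKB1 (encoded by Stk11) is the kinase upstream of the energy sensor AMPK, and for the knockout the labels give the genotype LKB1 lox/lox. The Cre driver, and whether the wild-type mice carried floxed alleles, is not stated in the labels, nor are doses and times. Each genotype received mineral oil, carbon tetrachloride (CCl4, a liver toxicant), saline or AICAR, which is phosphorylated inside cells to a compound that activates AMPK. Mineral oil was taken as the control for CCl4 and saline as the control for AICAR. Each of the 8 groups had 2 arrays, 16 in all.

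An acyl-CoA thioesterase splits an acyl-CoA into a free fatty acid and coenzyme A, and so undoes the activation that precedes both oxidation and storage of the acid. Acot1, Acot2, Acot3 and Acot4 belong to a family that mice carry as a gene cluster and that is induced in liver by fasting and by ligands of the nuclear receptor PPARA. Acot1 works in the cytosol, Acot2 in mitochondria, and Acot3 and Acot4 in peroxisomes. Baat, Acnat1 and Acnat2 share the hydrolase fold of that family but pass the acyl group to an amino acid: Baat joins bile acids to taurine or glycine, and mouse Acnat1 joins long-chain fatty acids to taurine. Acot12 is a cytosolic acetyl-CoA hydrolase from a separate structural family.

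The genes lay in 3 places of the mouse reference annotation. Acot2, Acot1, Acot4 and Acot3 followed each other in that order on chromosome 12, between Riox1 and the further family member Acot5. Acnat2, Acnat1 and Baat were neighbours on chromosome 4, between Plppr1 and Mrpl50. Acot12 lay apart, on chromosome 13 between Ssbp2 and Zcchc9. RefSeq start-site windows of 300 bases (250 before and 50 after the start, build GRCm38.p6) were at hand for 7 of the 8 genes. They were searched on both strands for the binding element of PPARA with its partner RXR, here 2 copies of AGGTCA with any 1 base between them and up to 2 mismatches. Acot12 held a match with 1 mismatch (AGGTGAGAGGTCA, minus strand relative to the gene, at position -110 from the start). Acot4 held a match with 2 mismatches (CGGCCAAAGGTCA, minus strand, at position -13). The windows of Acot1, Acot2, Acot3, Acnat1 and Acnat2 held none. Of all 32851 windows of this length, 3.86% held a match with up to 2 mismatches and 0.554% one with up to 1. A match is a description of the letters only, and no match says only that the letters are not in this window. The windows of Acot4 and Acot12 are shown because of these matches, in capitals and as they read on the gene's strand, and those of Acot3 and Acnat2 because these genes passed the threshold in a comparison below:
Acot4 (chr12:84038129-84038428, plus strand): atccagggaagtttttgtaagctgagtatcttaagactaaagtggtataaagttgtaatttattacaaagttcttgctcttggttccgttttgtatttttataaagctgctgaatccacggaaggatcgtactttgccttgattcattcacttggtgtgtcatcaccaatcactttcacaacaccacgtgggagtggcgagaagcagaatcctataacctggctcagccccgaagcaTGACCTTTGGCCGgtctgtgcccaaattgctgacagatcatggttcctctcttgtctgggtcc
Acot12 (chr13:91741271-91741570, plus strand): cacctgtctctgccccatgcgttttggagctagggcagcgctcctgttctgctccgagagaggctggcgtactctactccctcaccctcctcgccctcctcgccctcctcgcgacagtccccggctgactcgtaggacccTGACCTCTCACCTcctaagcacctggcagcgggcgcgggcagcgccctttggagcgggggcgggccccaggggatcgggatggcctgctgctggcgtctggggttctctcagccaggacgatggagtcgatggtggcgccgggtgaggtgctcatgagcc
Acot3 (chr12:84051894-84052193, plus strand, the first of its 2 listed starts): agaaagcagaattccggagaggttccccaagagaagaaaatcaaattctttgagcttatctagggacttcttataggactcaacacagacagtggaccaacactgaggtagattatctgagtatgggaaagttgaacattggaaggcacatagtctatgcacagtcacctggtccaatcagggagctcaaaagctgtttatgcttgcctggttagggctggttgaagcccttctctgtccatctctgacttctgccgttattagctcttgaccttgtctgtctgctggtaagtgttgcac
Acnat2 (chr4:49408102-49408401, minus strand, the first of its 2 listed starts): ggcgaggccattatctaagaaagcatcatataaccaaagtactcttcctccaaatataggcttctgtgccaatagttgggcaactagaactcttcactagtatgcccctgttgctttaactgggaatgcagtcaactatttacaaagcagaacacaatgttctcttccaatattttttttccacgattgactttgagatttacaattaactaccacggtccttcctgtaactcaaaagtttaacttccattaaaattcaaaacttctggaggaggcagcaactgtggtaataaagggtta

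Aligned over their whole length, windows of different genes matched at 44% to 55.7% of 300 bases, and the windows of Acot3 and Acot4, which are next to each other on chromosome 12, matched at 50.3%.

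Signal was measured on Illumina arrays of 1 colour and is given as background-corrected, quantile-normalized log2 signal. The median raw signal was 172.4 to 213.7 across arrays, with 12233 to 13730 of 25697 probes detected above background. Precision is limited by the few arrays per group. Arrays of a group are labelled as biological replicates, but no label names the animal behind an array, so a p-value here reflects spread between samples that may be technical. The 2 knockout saline arrays did not differ beyond noise, since differences between them, compared between the probes of 1272 same-gene pairs, were uncorrelated (r = -0.0048, 95% interval -0.06 to 0.05, against at least 0.48 in the other 119 array pairs). They were counted as 1 sample, so that group has no spread of its own and 15 samples entered the fit. Stk11 signal was 10.04 to 10.38 on the 8 wild-type arrays and 8.94 to 9.54 on the 8 knockout arrays, without overlap, and fell by 1.04 ± 0.10 (SE) in the knockout over the 4 agents (limma adjusted p = 0.00015). Where its probe lies relative to the deleted part is not known here. The hepatocyte markers Ttr and Apoa1 were at 15.80 to 16.10 and 15.60 to 16.06 on all 16 arrays, while the only Alb value came from a dim probe (5.23 to 6.97, detected on 13 arrays).

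Each of the 7 genes had a probe detected on all 16 arrays, and all 11 probes passed the filter on dim signal. There were 10 comparisons of group pairs or averages and 2 of differences between differences (interactions), across 11338 features. In the knockout effect averaged over the 4 agents, limma called 1 of the 7 genes (Acot3, higher) where it called 9.26% of all features, and nothing is read from that count because the genes were chosen with these results known. Acnat2 was the single gene called in the knockout effect under AICAR (7.53% of all features), in AICAR against saline in the knockout (1.2%) and in the AICAR by genotype interaction (0.3%), lower or negative each time. None of the 7 was called in the knockout effect in oil (1.24%), in saline (0.132%) or under CCl4 (1.29%), nor in AICAR against saline in the wild-type (0.00882%). In CCl4 against oil in either genotype, in the CCl4 by genotype interaction and in oil against saline, limma called 0 features of any kind (0%). At an unadjusted p under 0.05 those 4 comparisons had 1058, 403, 463 and 1177 features. The median difference of the 7 genes was -0.18 in the averaged knockout effect, beside -0.02 for all features, with 3 genes higher and 4 lower.

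**Figure D1:**
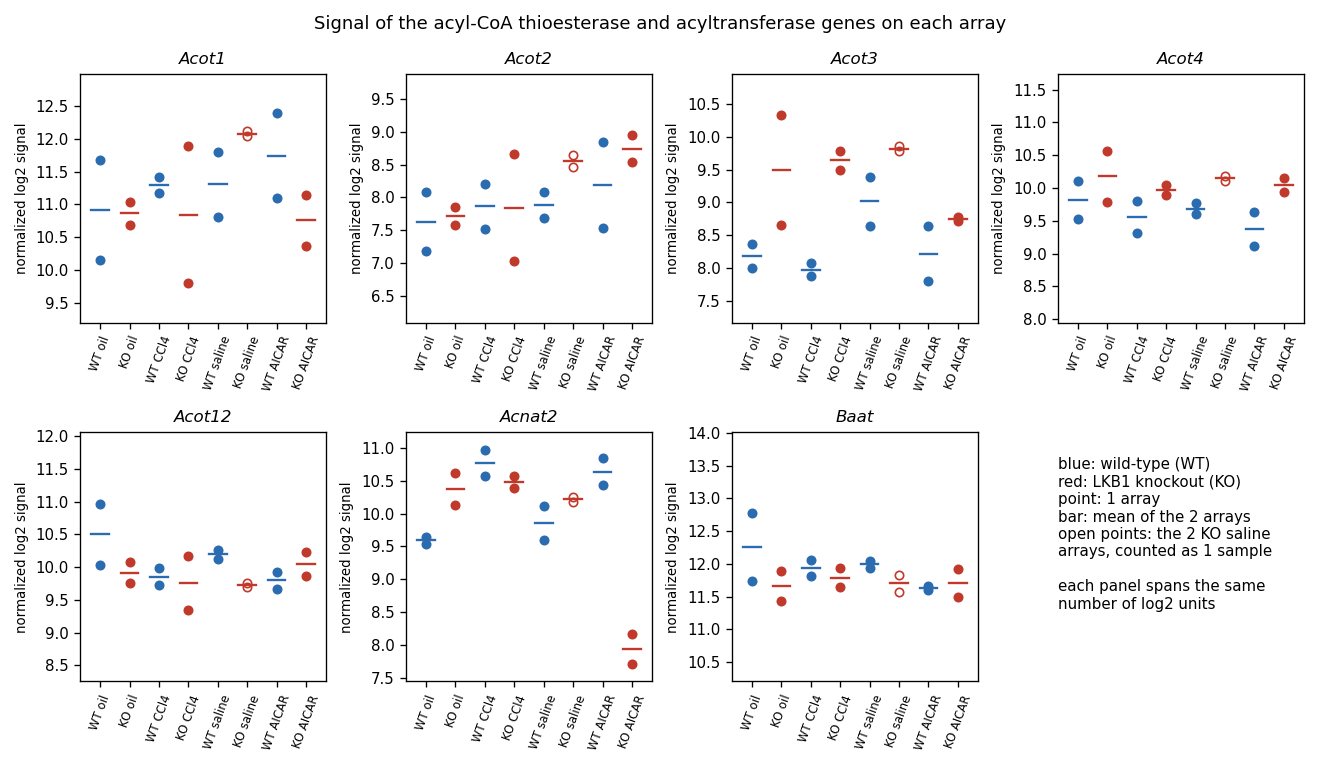
Normalized log2 signal of the 7 measured genes on each array (points; blue wild-type, red LKB1 knockout; bars are means of the 2 arrays of a group; open points are the 2 knockout saline arrays counted as 1 sample), with every panel spanning the same number of log2 units. Acnat2 is at 8.16 and 7.71 in the knockout AICAR group and at 9.54 or above on the other 14 arrays, Acot3 is higher in red than in blue under each agent, and the 2 arrays of several Acot1 groups lie over 1 unit apart.

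Acot1, the cytosolic long-chain thioesterase, varied more between the 2 arrays of a group than between groups. Its log2 signal was 11.67 and 10.15 in wild-type oil livers, 11.04 and 10.69 in knockout oil, 11.17 and 11.41 in wild-type CCl4 and 9.80 and 11.89 in knockout CCl4. It was 11.80 and 10.81 in wild-type saline, 12.12 and 12.04 in knockout saline, 12.39 and 11.10 in wild-type AICAR and 11.14 and 10.37 in knockout AICAR. Genotypes overlapped in oil, CCl4 and AICAR, and only in saline did both knockout arrays lie above both wild-type ones. Those 2 knockout arrays count as 1 sample, and every measured gene was apart in saline. How many of all features were apart there was not counted, so nothing is read from it, here or for the genes below. From the highest group mean, knockout saline (12.08), to the lowest, knockout AICAR (10.75), each group overlapped the next in order. The pooled SD within groups was 0.85, above that of 98.3% of all features, whose median SD was 0.27. The averaged knockout effect was -0.18 ± 0.37 (SE, 7 knockout against 8 wild-type samples). The largest of its differences, -1.33 ± 0.86 for AICAR against saline in the knockout and -1.77 ± 1.11 for the interaction, were not called. In these bulk samples, fewer cells of a type and less RNA per cell cannot be told apart.

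The wide spread of Acot1 was seen by both of its probes. The second probe had a pooled SD of 0.88, and it correlated with the first at r = 0.94 over the 15 samples. Within groups, the difference between replicate 2 and replicate 1 had the same sign for both probes in 7 of 7 groups (r = 0.97 over 7 groups), from -1.52 in wild-type oil to 2.08 in knockout CCl4 by the first probe and from -1.59 to 2.38 by the second. These correlations are descriptions over points that share their arrays and normalization. Here and below, those of replicate differences are taken without subtracting the mean difference. The features most like Acot1 over the 15 samples were Pglyrp1 (r = 0.82), Map4k4 (r = 0.79) and S100a8 (r = 0.79), of which Pglyrp1 and S100a8 are made in quantity by neutrophils. Of 10 listed neutrophil markers 7 were tested, and 4 of them were detected on every array. S100a8 is itself one of the tested markers, so their sum is not separate from that likeness. Their summed signal was highest in knockout saline (8860) and lowest in a knockout AICAR sample (1670). The Acot1 group means were highest in knockout saline by both probes, and lowest in knockout AICAR by the first probe (10.75) but in wild-type oil by the second (8.28). Of the neutrophil markers 7 of 7 were lower in AICAR against saline in the knockout (median -1.92) with 0 called. The part of these cells in the Acot1 values was not tested.

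Acot2, the mitochondrial member, had 3 probes, of which the brightest did not move with the other 2. By the brightest probe its signal was 8.08 and 7.18 in wild-type oil, 7.58 and 7.86 in knockout oil, 7.52 and 8.21 in wild-type CCl4 and 7.03 and 8.66 in knockout CCl4. It was 8.09 and 7.69 in wild-type saline, 8.65 and 8.46 in knockout saline, 8.85 and 7.53 in wild-type AICAR and 8.54 and 8.95 in knockout AICAR. The genotypes overlapped except in saline, where the knockout is 1 sample. Every group overlapped its neighbour in the order of means, and the averaged knockout effect was 0.32 ± 0.29. The second probe ranged from 5.67 to 6.82 and correlated with the first at r = -0.33 within groups, and the third, which was detected on 2 arrays, at r = -0.30. Their averaged knockout effects were 0.24 ± 0.15 and 0.14 ± 0.14. For AICAR against saline in the wild-type the first probe gave 0.30 ± 0.55 and the second -0.74 ± 0.29, opposite in sign. Within groups the brightest Acot2 probe moved with Acot1. The replicate differences of the 2 genes correlated at r = 0.84 by the first Acot1 probe, with the same sign in 5 of 7 groups, and at r = 0.93 by the second. Over the 15 samples the correlations were lower, at r = 0.62 and 0.78. The genes parted in AICAR against saline in the knockout, at 0.19 ± 0.68 for Acot2 and -1.33 ± 0.86 and -1.28 ± 0.88 for the Acot1 probes. Acot1 and Acot2 are near-identical neighbours, and probe sequences were not analysed here. Whether the brightest Acot2 probe also binds Acot1 transcripts was not tested. The 3 features most like the brightest Acot2 probe over 15 samples were Dusp2, Lair1 and Psma5, each at r = 0.82.

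**Figure D2:**
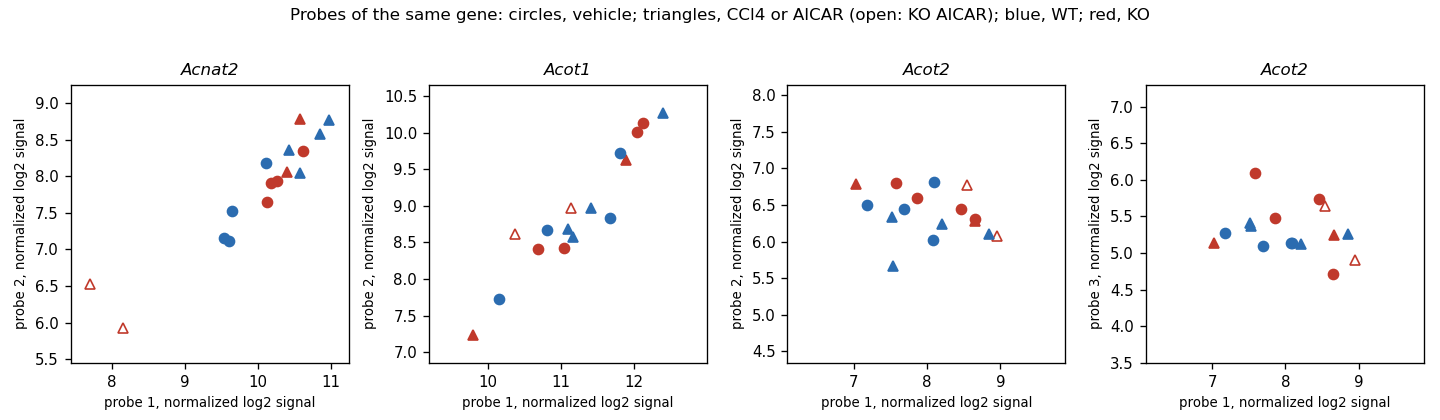
Probes of the same gene set against each other, 1 point per array, both axes in normalized log2 signal and spanning the same number of units (circles oil or saline, triangles CCl4 or AICAR, open triangles knockout AICAR, blue wild-type, red knockout). The 2 Acnat2 probes both put the knockout AICAR arrays lowest (r = 0.93 over 15 samples), the 2 Acot1 probes follow each other (r = 0.94), and the other two Acot2 probes do not follow the first (r = -0.27 and -0.24).

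Acot3, a peroxisomal thioesterase for long-chain acyl-CoAs, was the one of the 7 genes called in the averaged knockout effect. Its signal was 8.0 and 8.36 in wild-type oil against 10.33 and 8.66 in knockout oil, and 7.87 and 8.07 in wild-type CCl4 against 9.49 and 9.79 in knockout CCl4. It was 9.39 and 8.64 in wild-type saline against 9.78 and 9.86 in knockout saline, and 8.64 and 7.80 in wild-type AICAR against 8.72 and 8.78 in knockout AICAR. Under each of the 4 agents both knockout arrays lay above both wild-type arrays, although in saline the 2 knockout arrays are 1 sample. How many of all features were apart under each agent was not counted. Wild-type saline replicate 1 lay above knockout oil replicate 2 and both knockout AICAR arrays. Averaged over the agents Acot3 rose by 1.08 ± 0.25 in the knockout, from a mean of 8.35 to 9.43 (2.11-fold, 7 against 8 samples), more than the difference of 97.7% of all features. The separate differences were 1.31 ± 0.47 in oil, 0.80 ± 0.58 in saline, 1.67 ± 0.47 under CCl4 and 0.53 ± 0.47 under AICAR, none called alone. The averaged call was lost without wild-type CCl4 replicate 1 (1.05), wild-type saline replicate 2 (0.98) or wild-type AICAR replicate 2 (0.97).

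For AICAR against saline the Acot3 differences were -0.80 ± 0.47 in the wild-type and -1.07 ± 0.58 in the knockout. Neither was called, and the wild-type groups just touched, at 8.64 on the lower saline and the higher AICAR array. Markers of several cell types moved with the same averaged contrast as Acot3, in which limma called 9.26% of all features. Of 14 listed periportal hepatocyte markers, 11 were tested and detected on all arrays, and limma called 6 higher and 1 lower in the knockout (median 0.75). Their summed signal was 104000 to 164000 in wild-type samples and 180000 to 228000 in knockout samples. Stellate cell and fibroblast markers were lower in 13 of 13 with 2 called (median -0.37), sinusoidal endothelial markers in 10 of 12 with 2 called (median -0.28), and Kupffer cell markers in 9 of 9 with 0 called (median -0.27). Hepatocyte markers as a whole were at a summed signal of 585000 to 679000 in every group. Of the 15 tested, 11 were lower with 1 called, at a median difference of -0.03. Pericentral hepatocyte markers were split, with 8 higher and 7 lower, of which 2 and 3 were called (median 0.03). Whether these shifts take part in the Acot3 difference was not tested. The features most like Acot3 over 15 samples were Gm826 and Smyd2 (both r = 0.86) and F11r (r = 0.85).

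Acot4, its peroxisomal neighbour, which in mouse hydrolyses succinyl-CoA, had the same order of genotypes with a smaller difference. Its signal was 9.53 and 10.10 in wild-type oil, 10.57 and 9.79 in knockout oil, 9.80 and 9.31 in wild-type CCl4 and 10.05 and 9.90 in knockout CCl4. It was 9.77 and 9.60 in wild-type saline, 10.19 and 10.10 in knockout saline, 9.63 and 9.12 in wild-type AICAR and 9.94 and 10.15 in knockout AICAR. Knockout arrays lay above wild-type ones without overlap in CCl4, saline and AICAR, and overlapped them in oil. In saline the knockout is 1 sample. The 4 knockout groups had the 4 highest means (9.97 to 10.18) and the wild-type groups the 4 lowest (9.38 to 9.81), although each group overlapped the next. The averaged knockout effect was 0.48 ± 0.16, larger than that of 87.4% of all features, and was not called. Acot3 and Acot4 correlated at r = 0.74 over the 15 samples and their replicate differences at r = 0.75 over 7 groups, with the same sign in 5, in points that share arrays. The features most like Acot4 were Esr1 (r = 0.89), the oestrogen receptor, Adk (r = 0.86), adenosine kinase, and Gas2 (r = 0.86).

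Outside the 7 genes but next in the cluster on chromosome 12, Acot5 rose in the knockout by 1.17 ± 0.32 on average, from a dim 5.10 to 6.28 (limma adjusted p = 0.041). That call held in 4 of the 16 fits that left out 1 array, and in 7 of the 10 other alternative fits that kept its probe. Acot6, another peroxisomal member, was also dim, at 5.13 in the wild-type and 5.36 in the knockout, and differed by 0.22 ± 0.14 (adjusted p = 0.36). Members of 1 gene family can share probe binding, which was not tested, and the sequences of Acot5 and Acot6 were not compared here.

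**Figure D3:**
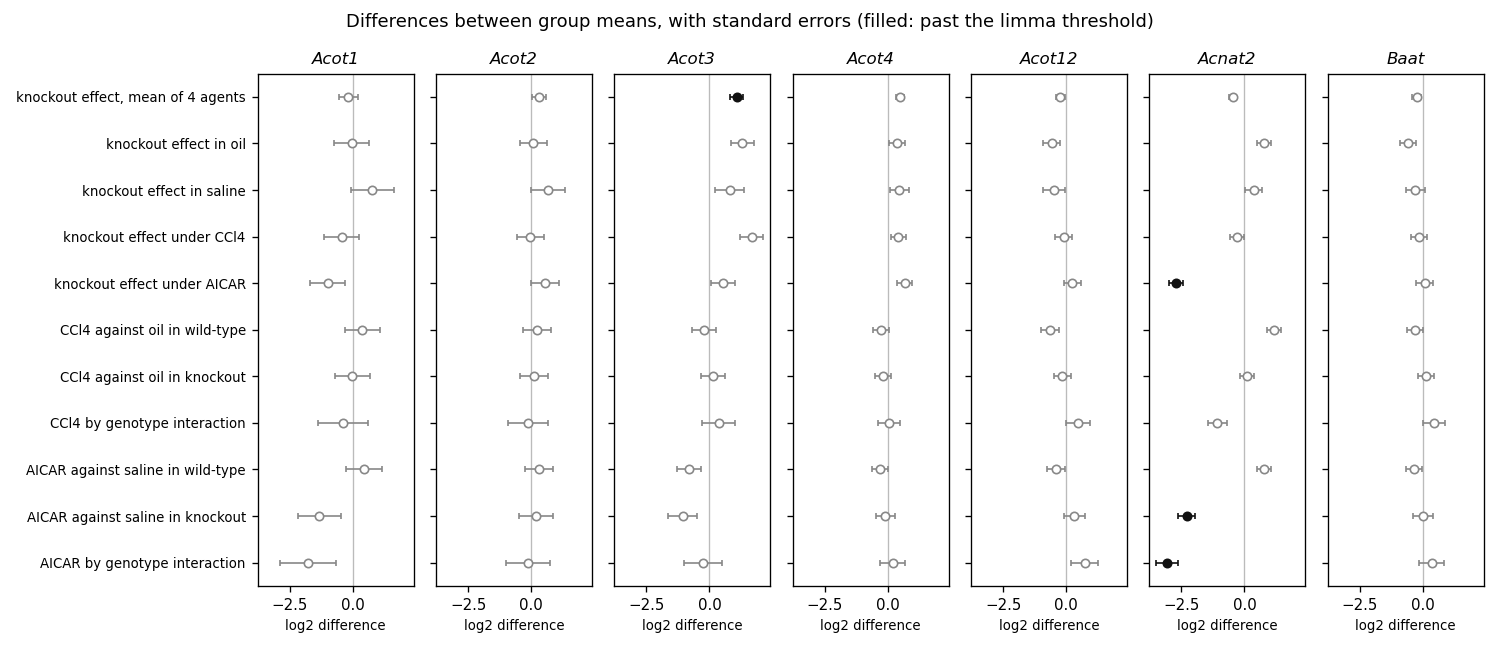
Log2 differences of group means with standard errors for the 7 genes in 11 comparisons (oil against saline left out), first group minus second; filled points passed the limma threshold across all features. Acot3 is to the right of 0 in every knockout effect, from 0.53 to 1.67, and Acnat2 lies at -2.71, -2.29 and -3.07 in 3 of the 4 rows that hold knockout AICAR livers.

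Acnat2, the peroxisomal acyltransferase next to Acnat1, stood out in 1 group. Its signal was 8.16 and 7.71 in knockout AICAR livers and between 9.54 and 10.97 on the other 14 arrays. In saline it was 10.11 and 9.60 in the wild-type and 10.18 and 10.26 in the knockout, and in wild-type AICAR livers 10.85 and 10.43. The 2 knockout AICAR arrays were thus the lowest of all 16, with a gap to every other group, while the wild-type AICAR arrays lay above the wild-type saline ones. In raw signal the knockout AICAR arrays read 381.3 and 300.6 and the knockout saline arrays 1093 and 1082, all detected above background.

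Against wild-type AICAR livers, Acnat2 fell by 2.71 ± 0.27 in knockout AICAR livers, from a mean of 10.64 to 7.93 (6.53-fold lower, 2 against 2 samples), a larger difference than that of 99.4% of all features. Against knockout saline it fell by 2.29 ± 0.33 (4.88-fold lower, 2 against 1 sample), and in the wild-type AICAR and saline livers differed by 0.78 ± 0.27, which was not called. The AICAR by genotype interaction was -3.07 ± 0.43. These comparisons share the knockout AICAR arrays. The call of the interaction was lost without wild-type saline replicate 1 (-3.33) or 2 (-2.81), wild-type AICAR replicate 1 (-2.86) or 2 (-3.29), or knockout AICAR replicate 2 (-2.84), and that of AICAR against saline in the knockout without knockout AICAR replicate 2 (-2.06). The knockout effect under AICAR was called without any 1 of the 16 arrays, at -2.93 to -2.48.

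A second Acnat2 probe was also lowest in knockout AICAR livers. It read 5.92 and 6.53 in knockout AICAR livers, 8.57 and 8.36 in wild-type AICAR, 7.91 and 7.93 in knockout saline and 8.18 and 7.12 in wild-type saline, so the knockout AICAR arrays were again the lowest of 16. In knockout AICAR livers this probe was dim, at 190.2 and 209.3 in raw signal where array medians were 172.4 to 213.7. The size of its differences is limited by that. Its differences were -2.24 ± 0.42 for the knockout effect under AICAR, -1.69 ± 0.51 for AICAR against saline in the knockout and -2.51 ± 0.66 for the interaction. When each probe was tested on its own, the first of these was called and the other two were not. Neither probe's sequence was analysed here, and whether they also bind Acnat1, the adjacent close relative, was not tested.

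In the oil and CCl4 arm Acnat2 was 9.65 and 9.54 in wild-type oil, 10.13 and 10.62 in knockout oil, 10.97 and 10.58 in wild-type CCl4 and 10.39 and 10.57 in knockout CCl4. The wild-type CCl4 arrays lay above the wild-type oil arrays by 1.18 ± 0.27 on average, a larger difference than that of 98.3% of all features, and the knockout CCl4 arrays lay between the 2 knockout oil arrays (difference 0.11 ± 0.27). The CCl4 by genotype interaction was -1.07 ± 0.38, while by the second probe CCl4 against oil gave 1.06 ± 0.42 in wild-type livers and 0.41 ± 0.42 in knockout livers, with an interaction of -0.65 ± 0.59. In oil the knockout arrays lay above the wild-type ones by 0.77 ± 0.27. None of these was called.

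Averaged over the agents the Acnat2 knockout effect was -0.47 ± 0.14, a mean of differences of both signs (0.77 in oil, 0.36 in saline, -0.30 under CCl4 and -2.71 under AICAR). In the order of means, the knockout AICAR group was separated from the next, wild-type oil, and knockout saline from wild-type saline below it, while the other neighbours overlapped. The features most like Acnat2 over 15 samples were Coa4 (r = 0.93), Gimap9 (r = 0.91) and Tceal8 (r = 0.90). Within groups those 3 correlated with it at 0.25, -0.02 and 0.14, so the likeness was between groups.

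Some marker lists also differed in a contrast in which Acnat2 was called lower. In the knockout effect under AICAR 7 of 7 tested neutrophil markers, 8 of 9 Kupffer cell markers and 6 of 6 lymphocyte markers were lower, with medians of -1.07, -0.82 and -0.54 and 0 called. Stellate cell and fibroblast markers were lower in 11 of 13, with 3 called lower (median -0.60), and of 11 periportal hepatocyte markers 9 were higher, with 3 called (median 0.67). Of 15 pericentral hepatocyte markers 9 were lower and 6 higher, with 1 called lower (median -0.54). Sinusoidal endothelial markers were split, 7 lower and 5 higher (median -0.07), and 4 of 4 pancreatic acinar markers were higher (median 0.38). Of all features 7.53% were called in this contrast. Summed stellate cell and fibroblast signal was 15000 to 15200 in knockout AICAR and 24600 to 26600 in wild-type AICAR samples. Summed neutrophil signal was 1670 to 4150 in knockout AICAR and 4720 to 7120 in wild-type AICAR samples, and summed Kupffer cell signal 33500 to 33800 against 57400 to 67100. Of the 15 tested hepatocyte markers 10 were lower, with a median of -0.05. The part of these lists in the Acnat2 values was not tested.

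Baat, which conjugates bile acids, was called in no comparison. Its signal was 11.74 and 12.78 in wild-type oil, 11.89 and 11.43 in knockout oil, 12.06 and 11.82 in wild-type CCl4 and 11.64 and 11.94 in knockout CCl4. It was 12.04 and 11.94 in wild-type saline, 11.57 and 11.83 in knockout saline, 11.66 and 11.60 in wild-type AICAR and 11.49 and 11.92 in knockout AICAR. Genotypes overlapped in oil, CCl4 and AICAR, each group overlapped its neighbour in the order of means, and wild-type oil was highest through replicate 2 alone. The averaged knockout effect was -0.24 ± 0.17, and the 4 separate ones ran from -0.60 ± 0.32 in oil to 0.07 ± 0.32 under AICAR. AICAR against saline differed by -0.36 ± 0.32 in the wild-type and 0.00 ± 0.39 in the knockout.

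Acot12, the cytosolic acetyl-CoA hydrolase, had a similar profile. Its signal was 10.03 and 10.97 in wild-type oil, 10.08 and 9.75 in knockout oil, 9.99 and 9.72 in wild-type CCl4 and 9.34 and 10.17 in knockout CCl4. It was 10.26 and 10.13 in wild-type saline, 9.69 and 9.75 in knockout saline, 9.93 and 9.67 in wild-type AICAR and 9.86 and 10.23 in knockout AICAR. Only in saline were the genotypes apart, with the knockout, which is 1 sample there, lower (-0.48 ± 0.42). The averaged effect was -0.23 ± 0.18. AICAR against saline was -0.40 ± 0.34 in the wild-type and 0.33 ± 0.42 in the knockout, and the interaction of 0.73 ± 0.54 was not called.

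Baat and Acot12, which lie on different chromosomes, correlated at r = 0.86 over the 15 samples. Their replicate differences had the same sign in 7 of 7 groups (r = 0.91), the largest being 1.04 for Baat and 0.94 for Acot12 in wild-type oil. The features most like each were also alike within groups: Cspp1 (r = 0.93), Herc2 (0.91) and Slc25a16 (0.91) for Baat, with 0.92 to 0.96 within groups, and Ephx2 (0.92), the soluble epoxide hydrolase, Usp8 (0.90) and Fam126b (0.88) for Acot12, with 0.89 to 0.92. All these points share arrays, RNA samples and normalization.

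**Figure D4:**
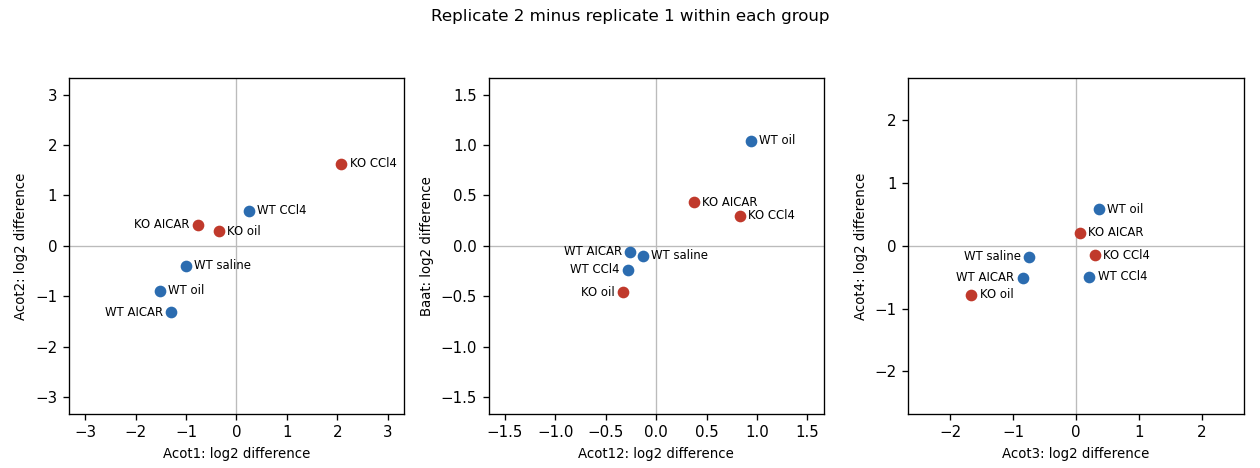
Replicate 2 minus replicate 1 on the log2 scale, 1 point per group of 2 samples (7 groups; blue wild-type, red knockout), for Acot1 against the brightest Acot2 probe, Acot12 against Baat and Acot3 against Acot4. The within-group differences of the pairs gave r = 0.84, 0.91 and 0.75, taken without subtracting the mean difference. In the Baat and Acot12 panel all 7 groups have the same sign on both axes, and in each of the other panels 5 of 7 do.

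The enzymes that act beside these genes were counted from lists that were drawn up with earlier results of these arrays known. Of 14 other acyl-CoA thioesterases and CoA hydrolases 13 were tested, and in the averaged knockout effect limma called 4 higher and 1 lower (median 0.10, beside -0.02 for all features). Of all features it called 9.26% there, the share beside which this and the following list counts stand. Them5, a mitochondrial thioesterase, rose by 2.78 ± 0.30 (adjusted p = 0.00027) and Nudt19, a peroxisomal coenzyme A hydrolase, by 1.04 ± 0.11 (adjusted p = 0.00018). Acot11 fell by 0.67 ± 0.14 (adjusted p = 0.012), and by 1.47 ± 0.26 under AICAR (adjusted p = 0.0071). Acot8, the broad peroxisomal thioesterase, differed by -0.20 ± 0.13 (adjusted p = 0.39). None of the 13 was called in any comparison of agents or in either interaction.

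Of 10 other genes of acyl-CoA to amino acid conjugation 8 were tested, and 3 were called lower and 0 higher in the averaged knockout effect (median -0.47), beside 9.26% of all features. Gm4952, a glycine N-acyltransferase-like gene, fell by 1.28 ± 0.22 (adjusted p = 0.0051) and Acsm5, a medium-chain acyl-CoA synthetase, by 0.85 ± 0.15 (adjusted p = 0.005). Slc27a5, which activates bile acids to the CoA form that Baat uses, differed by 0.20 ± 0.18 (adjusted p = 0.55). Of 14 tested genes of bile acid synthesis and transport, 6 were called lower and 0 higher (median -0.42), among them Cyp27a1 (-0.76 ± 0.13, adjusted p = 0.0052), a sterol hydroxylase, and Nr1h4 (-0.76 ± 0.15, adjusted p = 0.0093), the bile acid receptor FXR. Leaving out 1 array took that count down to 2 without wild-type CCl4 replicate 2.

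Of 21 tested genes of peroxisomal oxidation and import 1 was called higher and 4 lower (median -0.22). Hacl1, a lyase of peroxisomal alpha-oxidation, rose by 0.84 ± 0.13 (adjusted p = 0.0026), and Pex11a, which acts in peroxisome division, fell by 0.70 ± 0.15 (adjusted p = 0.015). Beside 9.26% of all features, 2 of 23 tested further PPARA targets were called higher, a similar share, and 0 lower (median -0.18). They were Slc22a5, a carnitine transporter, at 0.62 ± 0.13 (adjusted p = 0.015), and the hormone gene Fgf21 at 1.61 ± 0.38 (adjusted p = 0.025), with a difference of 4.49 ± 0.72 under AICAR (adjusted p = 0.0049). Ppara itself differed by -0.70 ± 0.22 (adjusted p = 0.079), and Ehhadh by -0.23 ± 0.31, Cyp4a14 by -0.69 ± 0.62 and Pdk4 by -0.44 ± 0.35 (adjusted p = 0.71, 0.55 and 0.49). Cyp4a10 and Cpt1a were not analysed here. The Fgf21 call in the averaged effect held in 10 of the 16 fits without 1 array, and its call under AICAR was lost without wild-type AICAR replicate 1 (adjusted p = 0.053).

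Of 12 tested acyl-CoA synthetases 1 was called, a share near the 9.26% of all features. It was Acsl4, which prefers arachidonate, at 0.79 ± 0.13 (adjusted p = 0.0043). Of 14 tested nuclear receptors and coactivators 2 were called higher and 2 lower. Nr1h4 is 1 of the 2 lower and was also counted among the bile acid genes. Some genes stand on more than 1 gene or marker list, so the counts are not separate. Ppargc1a, a coactivator of PPARA, rose by 2.60 ± 0.37 (adjusted p = 0.0016), and the xenobiotic-sensing receptor gene Nr1i3 fell by 1.54 ± 0.15 (adjusted p = 0.00018). No gene of the 7 lists was called in CCl4 against oil, AICAR against saline, oil against saline or either interaction. Of the 7 measured members and these lists, Acnat2 alone was called in the AICAR by genotype interaction in that fit, where 34 of 11338 features were called, 28 positive and 6 negative. In a fit to only the arrays compared Acnat2 was not called there and 1 PPARA target was.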

How the data were processed

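Liver RNA of 8 groups of 2 arrays was measured on Illumina arrays. The deposited table gives each probe's intensity on a linear scale, not normalized, and a detection p-value for each, per the file headers. Per the submitters' processing notes GenomeStudio was used. No version is given. The authors also deposited normalized intensity values, by a method that no label or header names, which served as an alternative.

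Intensities were background-corrected by normexp, taking the negative-control level from those p-values (neqc, offset 16), quantile-normalized and put on the log2 scale in R 4.3.3 with limma 3.58.1. The deposited detection p-values were used to keep the 15411 probes under 0.05 on at least 2 arrays. Symbols came from the platform annotation, and the probe with the highest mean stood for a gene, which left 11338 features. A model of group means (7 residual and 3.76 prior degrees of freedom) gave 12 comparisons, two-sided, adjusted by Benjamini and Hochberg over all features with a threshold of 0.05, and was tested on simulated data. Called means past that threshold. Means, SD and overlaps of groups are over 15 samples.

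The 8 genes and the lists were chosen with earlier results of these data known. Named genes are all members, Stk11, and of each list up to 4 called genes with the largest difference in a comparison (or the 2 smallest p-values), with Ppara, Nr1h4, Slc27a5, Acot8, Ehhadh, Cyp4a10, Cyp4a14, Cpt1a and Pdk4, and the 3 features most correlated with each member. Not every gene that this rule allows is described, some genes of the rule are not reported here, and Acot6 was added as a neighbour in the same family. Replicate numbers do not pair the samples: deviations of same-numbered samples correlated at -0.4 to 0.48 (median 0.0032) over 21 pairs of groups. The alternatives tried were uncorrected background, centring by medians, the authors' normalized values, a probe filter that was absent or stricter (0.01 on 8 or more arrays), all kept probes, 16 samples, trended and robust variance, array weights, a fit to only the arrays compared, a replicate block, and each array left out in turn. Sequences are from RefSeq (GRCm38.p6), aligned with Biopython 1.88.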

Additional observations from a re-analysis of the deposited data

Results flagged for a closer look

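The Acnat2 differences between AICAR and saline had opposite signs in the genotypes, at 0.78 in the wild-type, which was not called, and -2.29 in the knockout, which was. The AICAR by genotype interaction of -3.07 was past the limma threshold. The gene was chosen with results of these arrays in view and knockout saline is 1 sample, so the call is a description and no independent evidence. It was lost in 5 of 16 fits without 1 array and in a fit to only the arrays compared. The second probe gave -2.51, which was not called.

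Acot12 also differed in sign, with AICAR minus saline at -0.40 in the wild-type and 0.33 in the knockout. The interaction of 0.73 was not called. It comes to notice because both wild-type AICAR arrays lay below the wild-type saline arrays and both knockout AICAR arrays above the knockout saline sample.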

How the results depend on the processing

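Of 2316 differences of the 7 genes recomputed under the alternatives and with each array left out, 2257 moved by less than 1 SD between replicates, 59 by more, and 0 called ones changed sign. Many of them could not move. The settings that alter only the probe filter, the sample count, the variance, the weights or the block left the differences between group means as they were. Leaving out an array outside a comparison did so too. The count is therefore no measure of robustness. The knockout effect under AICAR, AICAR against saline in the knockout and the AICAR by genotype interaction of Acnat2 were -2.17, -1.78 and -2.48 without background correction, -2.17, -1.78 and -2.49 with the authors' normalized values, and -2.24, -1.69 and -2.51 by the second probe, which was called in the first of the 3 alone. With each array left out they were -2.93 to -2.48, -2.51 to -2.06 and -3.33 to -2.81. The averaged knockout effect of Acot3 was 0.87 to 1.29 with each array left out.

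Genes called among the 7 in the averaged knockout effect numbered 3 with both knockout saline arrays as samples (Acot3, Acot4 and Acnat2), 2 with trended and robust variance (Acot3 and Acnat2), and 0 to 2 with each array left out. In the AICAR by genotype interaction they numbered 0 with only the arrays compared and 0 to 1 with each array left out, in AICAR against saline in the knockout 0 to 1, and in the knockout effect under CCl4 0 to 1 (Acot3 without either knockout oil array). With the replicate block 1 gene was called in the averaged knockout effect (Acot3, 1.08) and 1 in the interaction (Acnat2, -3.07), and no call among the 7 was changed.

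Counts over all features under the alternatives were 997 to 1615 for the averaged knockout effect, 17 to 243 in oil, 0 to 94 in saline, 44 to 222 under CCl4 and 800 to 1286 under AICAR. They were 0 to 219 for AICAR against saline in the wild-type, 101 to 652 in the knockout, 17 to 118 for the AICAR interaction and 0 to 60 for oil against saline. With each array left out, the averaged effect had 639 to 1205 calls (639 without wild-type AICAR replicate 1), the effects in oil, saline, CCl4 and AICAR 32 to 172, 2 to 17, 40 to 178 and 229 to 1096 (229 without wild-type AICAR replicate 1), AICAR against saline in the knockout 54 to 159, and the AICAR interaction 0 to 41 (0 without wild-type saline or AICAR replicate 2). Of the gene lists in the averaged knockout effect, calls numbered 3 to 5 for thioesterases (3 without wild-type oil replicate 1), 2 to 5 for conjugation, 3 to 6 for peroxisomal genes, 1 to 5 for PPARA targets (1 without wild-type CCl4 replicate 1), 1 to 3 for synthetases, 2 to 6 for bile acid genes and 3 to 7 for nuclear receptors. In the AICAR interaction they numbered 0 in all lists and fits but 1, that of PPARA targets with only the arrays compared (1). Leaving out an array leaves its group 1 sample, assumed to vary like the others, so a call can be lost from precision alone. Leaving out 1 knockout saline array keeps that sample. Dim signal limits the third Acot2 probe, Acot5, Acot6 and, in knockout AICAR livers, the second Acnat2 probe.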
